A study of Mus musculus with 5 samples.

Results

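The gene Acp5 was followed through every cell class of a single-cell series of mouse kidney, inside macrophages and above all outside them. It was found by its symbol in the 5 gene lists, where it is 1 gene of 32285, and its level was taken per cell class and library. The kidneys came from wild-type C57BL/6 male mice of 8 to 10 weeks. The AKI libraries, AKI 1 and AKI 2, were taken at week 2 of aristolochic acid I (AAI), a plant nephrotoxin given by intraperitoneal injection at 3 mg/kg every 3 days. The CKD libraries, CKD 1 and CKD 2, were taken at week 4, after the same injections and a further period without AAI. The control was 1 library from mice given vehicle, so values for it have no replicate. Nothing in the labels tells whether the libraries of a group came from separate mice, and p-values then measure the spread between these libraries.

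Acp5 encodes tartrate-resistant acid phosphatase, an iron-containing enzyme of lysosomes and secreted vesicles that removes phosphate from proteins such as osteopontin. It is the classical histochemical marker of osteoclasts, the bone-resorbing cells of the macrophage lineage, where the transcription factors NFATc1, MITF and PU.1 drive it together with Ctsk. It is also made by some tissue macrophages and dendritic cells, and loss of the human enzyme causes a bone dysplasia with autoimmunity. In dissociated tissue, RNA freed from broken cells enters every droplet, so a few molecules of an abundant transcript can be counted in cells that do not make it.

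In GRCm39, Acp5 (ENSMUSG00000001348) lies at chr9:22038023-22049355 on the minus strand. The PCR primers of the study for Acp5 are shown because they mark a stretch that nearly all of its transcripts share, and no base is in capitals.
forward primer: gctgtcctggctcaaaaagc
reverse primer: cacaccgttctcgtcctgaa
On the 2375-base transcript Acp5-202, which has 5 exons, the forward primer matched exon 4 at chr9:22039135-22039154 and the reverse primer matched exon 5 at chr9:22038535-22038554. Both sites are in the coding sequence and frame a product of 208 bases. They matched 14 and 13 of 15 annotated transcripts. RefSeq's table of start sites holds 3 promoters for Acp5 in GRCm38.p6, and the one at chr9:22130549-22130848 on the minus strand is shown because it alone held the M-box letters, the site type named for MITF, the osteoclast regulator. Its M-box letters are in capitals.
Acp5 promoter: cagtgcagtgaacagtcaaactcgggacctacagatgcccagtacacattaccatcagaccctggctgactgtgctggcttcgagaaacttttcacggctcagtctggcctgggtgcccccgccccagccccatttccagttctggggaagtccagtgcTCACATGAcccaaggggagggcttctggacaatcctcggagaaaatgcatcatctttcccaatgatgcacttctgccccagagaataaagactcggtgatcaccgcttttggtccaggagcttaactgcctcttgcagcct
TCATGTGA or its reverse complement TCACATGA was searched on both strands and was present in 324 of 32851 promoters of 300 bases, a share of 0.986%. In this promoter it starts at base 160 and ends 84 bases before the start site. The NFATc1 core letters TGGAAA, searched on both strands as were all others, were in the same promoter and in 21.4% of all promoters. None of the 3 Acp5 promoters held the E-box letters TCACGTG, present in 3.77% of all promoters. The same was true of the PU.1 core letters GAGGAA, present in 28.3% of all promoters. It was also true of the AP-1 letters TGAGTCA, present in 5.20% of all promoters. Counts from the 3′ end of transcripts cannot tell which start site was used.

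The 5 libraries held 72896 barcodes and from 90028670 to 121316769 unique molecules (UMIs) each, of which 53718 barcodes were kept as single cells. The share of barcodes over the mitochondrial limit was 38.7% in the control and 11.1% to 12.7% in the others, and the lowest UMI count of a deposited barcode was 1229 in CKD 1 against 500 to 599 elsewhere. Clustering without Acp5 gave 53 clusters. They fell into 20 classes named by marker genes, except 6 clusters with 7349 cells that stayed unnamed. The control shared 150 barcodes with CKD 2, and 104 of them had a partner over 20 times deeper in CKD 2, of which 100 were kept as control cells. Control values include the cells with shared barcodes unless said otherwise.

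Over all barcodes, the control held 1038 Acp5 UMIs, AKI 1 and AKI 2 held 4617 and 7782, and CKD 1 and CKD 2 held 92100 and 72504. The kept cells held 150030 Acp5 UMIs. Levels in a class are UMIs of Acp5 per 10000 UMIs of that class, and intervals are exact 95% Poisson intervals, which cover counting error only. Macrophage-like cells had the highest level of the classes with at least 20 cells in CKD 1 and CKD 2, and T lymphocyte-like cells stood between 0.575 and 1.04 per 10000 in every library.

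**Figure D1:**
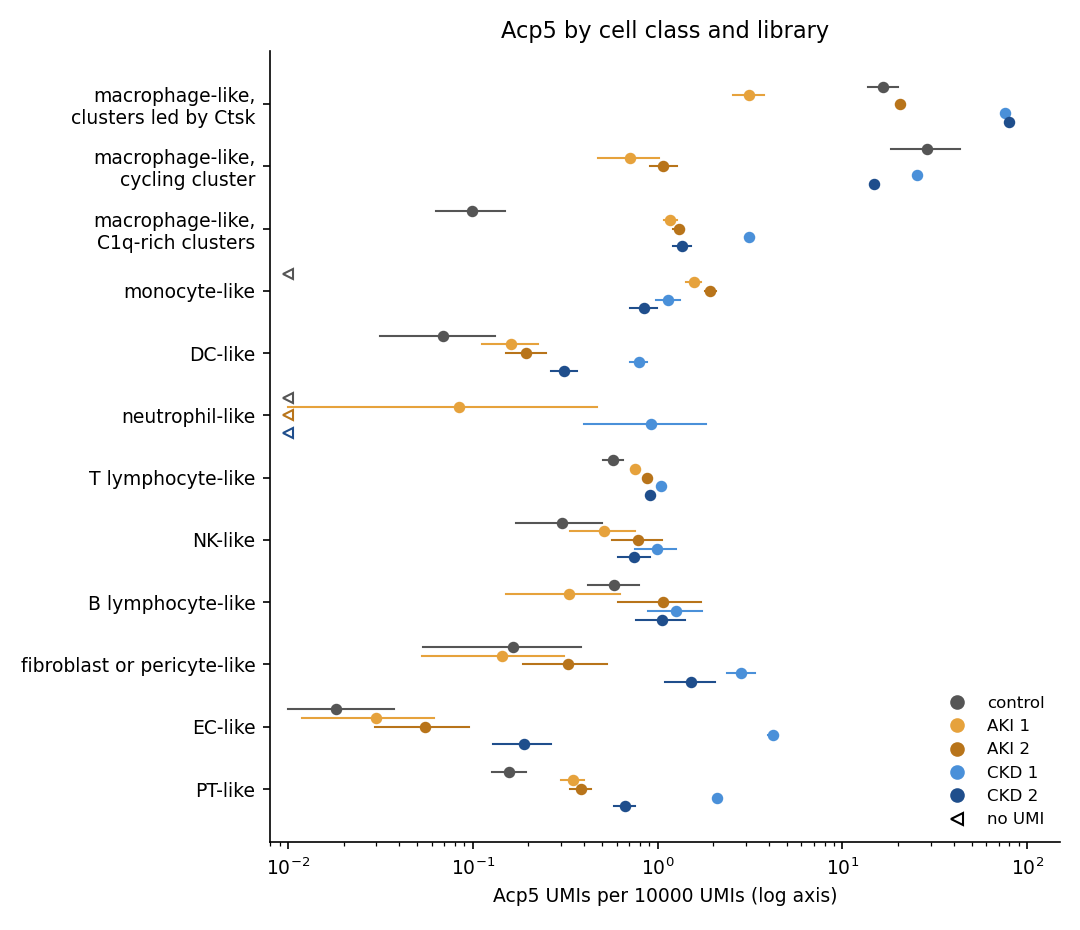
Acp5 UMIs per 10000 UMIs (log axis) for the main cell classes, with macrophage-like cells split by cluster, 1 point per library with its exact 95% Poisson interval and open triangles at the edge for libraries with no Acp5 UMI. The clusters led by Ctsk reach 75.8 and 79.5 in CKD 1 and CKD 2, while T lymphocyte-like cells stay between 0.575 and 1.04.

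Macrophage-like cells, the phagocytes that serve as the reference class, numbered 668 in the control, 553 and 748 in AKI, and 2068 and 527 in CKD. Their Acp5 level was 0.668 per 10000 in the control, 1.26 (AKI 1) and 3.24 (AKI 2) at week 2, and 47.5 (CKD 1) and 49.5 (CKD 2) at week 4. The CKD libraries did not overlap the AKI libraries. Acp5 was 18.9-fold higher in CKD than in AKI, a log2 difference of 4.24 with a standard error of 0.43 (95% interval 3.18 to 5.30, edgeR adjusted p = 0.00165, 2 libraries against 2). In that fit 31.9% of 12162 tested genes passed, 15.2% of the tested genes being higher in CKD, and Acp5 ranked 42 by log2 difference.

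The control value rested on shared barcodes. Of its 160 Acp5 UMIs, 137 lay in 36 cells that shared a barcode with a deeper library, and without those cells the level was 0.0970 per 10000 from 23 UMIs in 632 cells. The AKI 2 value rested on 3 cells with 705, 568 and 390 Acp5 UMIs, which held 1663 of 2784. Those 3 cells also held 1339 Ctsk UMIs and 995 Mmp9 UMIs but 15 C1q UMIs, and their highest doublet score was 0.633. The other 745 cells had 1.32 per 10000, close to the level of AKI 1.

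The Acp5 UMIs of macrophage-like cells were unevenly spread over cells. The median cell held 0 Acp5 UMIs in the control and in both AKI libraries, 3 in CKD 1 and 7 in CKD 2, at median depths of 3545, 10021, 10230, 2857 and 22575 UMIs per cell in the order control, AKI 1, AKI 2, CKD 1, CKD 2. Cells with 200 or more Acp5 UMIs numbered 3 in AKI 2, 99 in CKD 1 and 119 in CKD 2, and there were 0 in the control and AKI 1. The tenth of cells with most Acp5 held 58.0% of the class's Acp5 UMIs in AKI 1, 79.9% in AKI 2, and 79.1% and 51.1% in CKD 1 and CKD 2. After thinning each cell to 1000 UMIs, the share of macrophage-like cells with an Acp5 UMI was 0.817% in the control, 10.8% and 11.1% in AKI, and 53.3% and 46.7% in CKD, against 7.49%, 42.0%, 48.5%, 66.9% and 75.1% before thinning. Without the shared barcodes the control share before thinning was 3.32%, and its highest cell held 2 Acp5 UMIs.

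**Figure D2:**
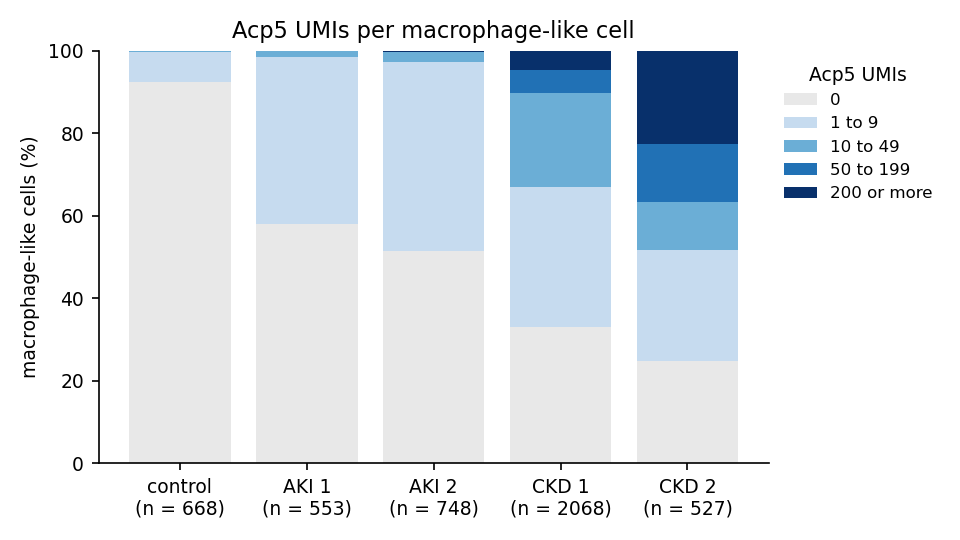
Share of macrophage-like cells (%) by their number of Acp5 UMIs per cell, 1 stacked bar per library. Cells with 200 or more Acp5 UMIs are 4.79% of the class in CKD 1 and 22.6% in CKD 2, and 0.401% in AKI 2.

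The macrophage-like class joined clusters of different leading genes, and their mix differed between AKI and CKD. Clusters led by Ctsk, which encodes the collagen-degrading protease cathepsin K, made up 46.1% of the class in both CKD libraries and 13.6% and 11.4% in AKI 1 and AKI 2. The cells under this name differed between the groups. C1q stood at 72.5 and 80.9 per 10000 in AKI 1 and AKI 2, and at 5.29 and 3.30 in CKD 1 and CKD 2. In the larger of these clusters Ctsk was at 0.829 and 15.9 in AKI, and at 59.9 and 61.8 in CKD. Acp5 was among their leading genes, so its level there is a description. It was 75.8 per 10000 in CKD 1 and 79.5 in CKD 2, and 3.12 and 20.5 in AKI 1 and AKI 2. In the control it was 16.6 with the shared barcodes and 0 without them, in 41 cells, with an exact 95% interval up to 0.717. The 20.5 came from 1812 Acp5 UMIs. For comparison, the 3 highest macrophage-like cells of AKI 2 held 1663 Acp5 and 1339 Ctsk UMIs, and the other 745 held 1121 and 45. These clusters held 75.6% and 85.7% of all Acp5 UMIs in CKD 1 and CKD 2.

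In the C1q-rich clusters, which carry the complement genes of resident kidney macrophages, Acp5 was 0.0991 per 10000 in the control, 1.17 and 1.30 in AKI, and 3.14 and 1.36 in CKD. The AKI values lay below both CKD values, but the interval of CKD 2 (1.22 to 1.51) overlapped that of AKI 2 (1.21 to 1.39). In CKD 1 these clusters differed. The one led by Ccl8 had Acp5 at 4.64, with C1qa at 16.5 and Ctsk at 2.30 per 10000. The one led by Ms4a7 had Acp5 at 0.898, below both AKI values, with C1qa at 62.3 and Ctsk at 0.188. The cycling cluster led by Tgfbi and Cdk1 had 0.712 and 1.07 in AKI, and 25.4 and 14.8 in CKD. Its 11 control cells all shared a barcode with a deeper library and had 28.8 Acp5 UMIs and 0 C1q UMIs per 10000. With the Ctsk-led clusters left out, an alternative chosen after the data were seen, the CKD against AKI difference of the class was 2.81 (edgeR adjusted p = 0.0014). Most Acp5 UMIs that remained in CKD lay in the cycling cluster. It held 5381 in CKD 1 and 4095 in CKD 2, against 1121 and 339 in the C1q-rich clusters. The cycling cluster itself had Ctsk at 15.7 and 6.63 per 10000 in CKD 1 and CKD 2.

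The name of the Ctsk-led clusters was not secure. In the larger of them 7 of 10 macrophage markers were detected, but none of those markers was among its 10 leading genes, which were Ctsk, Mmp9, Acp5, Mt3, Slc9b2, Ocstamp, Jdp2, Slc37a2, Nrp2 and Ccl9. In CKD 1 and CKD 2 its cells had Cd68 at 7.86 and 8.09 and Csf1r at 2.98 and 3.58 per 10000, while Adgre1 was at 0.0618 and 0.0532 and Mrc1 at 0.0333 and 0.0588. Without the correction by library before clustering, and with classes set by marker gates on single cells, these cells left the macrophage-like class. At a mitochondrial limit of 15% the macrophage-like share of the Acp5 UMIs was 14.2% against 84.6% in CKD 1 and 9.33% against 92.4% in CKD 2. Without the correction and with the gates the CKD against AKI difference of the class was -0.48 (edgeR adjusted p = 0.142) and 1.51 (edgeR adjusted p = 0.0654).

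The other genes of the pathway were read in the same fit of macrophage-like cells, where the median log2 difference over all tested genes was 0.03. Over all tested genes 15.2% were higher and 16.7% lower in CKD. Of 30 genes of the osteoclast programme, Acp5 among them, 21 were higher and 3 lower in CKD, with a median of 1.44, so 80% of the list passed against 31.9% of all genes. Its members Ctsk, Mmp9, Acp5, Slc9b2, Ocstamp and Jdp2 were leading genes of the larger Ctsk-led cluster. The lists were chosen with earlier results of these data known, so the shares of lists are a description and no test. Slc9b2, a sodium-proton exchanger, was higher by 5.40 on the log2 scale, Ctsk by 5.22, Ocstamp, which acts in cell fusion, by 4.98, and Mmp9, a gelatinase, by 4.58. Of 7 tested repressors of that programme 5 were lower, a share of 71.4%, with a median of -1.36, among them Irf8 at -2.08, a transcription factor that holds back osteoclast formation.

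Most lysosomal genes were lower in CKD, unlike Acp5. Of 28 lysosomal hydrolases and membrane proteins 18 were lower and 3 higher in CKD, with a median of -0.93, and 75% of the list passed against 31.9% of all genes. The cysteine proteases Ctss, Ctsh and Lgmn had log2 differences of -1.95, -1.94 and -1.81. Of the 5 acid phosphatases tested, 1 passed, Acp2, the lysosomal acid phosphatase, at -1.07 (edgeR adjusted p = 0.00796). Of osteopontin and its receptors 9 were tested, of which 1 was higher and 2 were lower, a share of 33.3% that is near the 31.9% of all genes and no result about the list. Spp1, the gene of osteopontin, was at 5.87 and 9.46 per 10000 in AKI and at 13.2 and 2.93 in CKD, and its difference did not pass (edgeR adjusted p = 0.886). These counts describe the same cells as above, in which the Ctsk-led clusters had different shares in AKI and CKD.

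T lymphocyte-like cells, set apart by T cell receptor and CD3 genes, were the largest class. They numbered 1237 in the control, 5910 and 5662 in AKI, and 5013 and 5577 in CKD. Acp5 was 0.575 per 10000 in the control (from 260 UMIs), 0.752 (AKI 1) and 0.878 (AKI 2) at week 2, and 1.04 (CKD 1) and 0.906 (CKD 2) at week 4. The CKD values lay just above the AKI values without overlap. The difference of 0.25 on the log2 scale (SE 0.10, 95% interval -0.003 to 0.51) did not pass (edgeR adjusted p = 0.195, 2 libraries against 2), in a fit where 8.96% of 13773 genes passed. Without CKD 2 it was 0.28 and passed (edgeR adjusted p = 0.0130), with the lone CKD library assumed to vary as the AKI libraries did.

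Most T lymphocyte-like cells with Acp5 held 1 UMI of it. Cells with 2 or more numbered 32 in the control, 356 and 419 in AKI, and 561 and 920 in CKD, and the highest cell held 5, 5, 6, 14 and 17 UMIs in the order control, AKI 1, AKI 2, CKD 1, CKD 2. The share of cells with a UMI was 17.9%, 26.5%, 30.0%, 36.1% and 46.8% in that order, at median depths of 3330, 3727, 3707, 3593 and 5644 UMIs. Endothelial-like (EC) cells served as a class of the same tissue with little Acp5 in the control and AKI, and their shares were 0.579%, 1.79%, 3.47%, 31.2% and 12.0% at median depths of 3030, 5168, 5408, 2400 and 5284 UMIs.

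Thinned to 1000 UMIs per cell, the T lymphocyte-like share was 5.67%, 7.74%, 8.74%, 11.4% and 9.82%, and the EC-like share was 0.182%, 0%, 0.660%, 18.7% and 2.24%, again in the order control, AKI 1, AKI 2, CKD 1, CKD 2. In 4 libraries the T lymphocyte-like share was the higher of both, and in CKD 1 the EC-like share was. EC-like cells were taken for their little Acp5 in the control and AKI, so the order in those libraries is a description. In CKD 1 most Acp5 of EC-like cells lay in 1 cluster, at 8.27 per 10000, and the other EC-like cluster was at 0.54 against 1.04 in T lymphocyte-like cells.

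Acp5 in T lymphocyte-like cells was next set against the UMIs of macrophage genes in the same cells. If all of it came as free RNA from macrophage-like cells, Acp5 and C1qa, C1qb and C1qc would stand in the ratio they have in macrophage-like cells of that library. The observed Acp5 was 248 times this expectation in the control, 94.6 and 29.8 times in AKI 1 and AKI 2, and 1.27 (95% interval 1.19 to 1.36) and 3.28 times (95% interval 3.04 to 3.54) in CKD 1 and CKD 2. It was above the expectation in 5 of 5 libraries, by the least in CKD 1. In 2 libraries the size of the excess rested on few macrophage-like cells. It was 1725 times without the shared barcodes in the control and 73.9 times without the 3 highest cells in AKI 2.

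The choice of reference genes changed the size of the excess. With Ctsk, Mmp9 and Atp6v0d2, the genes of the Ctsk-led cells, the ratios were 2.46, 4.09, 14.2, 2.39 and 4.14 in the order control, AKI 1, AKI 2, CKD 1, CKD 2. With Ms4a7, Cd68 and Csf1r they were 145, 51.7, 18.8, 1.25 and 1.69. Each of these stood above 1 with its interval. The first set held few Ctsk UMIs in T lymphocyte-like cells of the control and AKI 1. In the control there were 2 of Ctsk, 77 of Mmp9 and 54 of Atp6v0d2, and in AKI 1 there were 2, 60 and 94. Atp6v0d2 was also on the marker list of intercalated cells, and neutrophils carry Mmp9. Whether these UMIs came from macrophage-like cells was not tested. Without the shared barcodes the control ratios were 2.12 and 1024 with these 2 sets of genes, and without the 3 highest cells those of AKI 2 were 4.74 and 46.2, in comparisons added after the data were seen. A further estimate took the share of free RNA from proximal tubule genes in T lymphocyte-like cells and the Acp5 level of all kept cells, and it gave 15.6, 6.84, 4.69, 0.525 and 1.01. By that estimate Acp5 in T lymphocyte-like cells of CKD 1 and CKD 2 did not exceed free RNA.

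**Figure D3:**
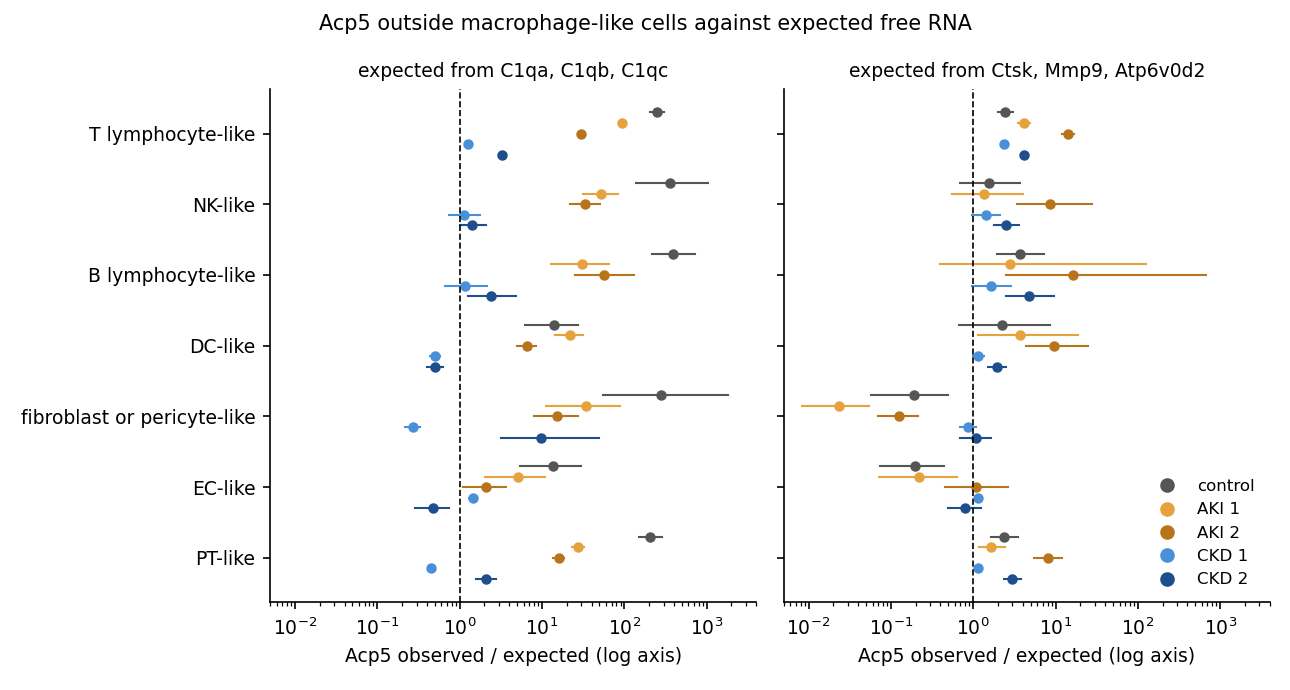
Acp5 observed over Acp5 expected from free RNA of macrophage-like cells (log axis) by class and library, with C1qa, C1qb and C1qc as reference on the left and Ctsk, Mmp9 and Atp6v0d2 on the right, with 95% intervals and a dashed line at 1. T lymphocyte-like cells lie above 1 in all 5 libraries with C1q genes as reference, from 1.27 in CKD 1 to 248 in the control, where the shared barcodes are included.

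The level was also taken in cells with no UMI of any C1q gene, Ctsk, Mmp9, Lyz2 or Cd68. These were 1059, 2742, 1753, 2641 and 3265 T lymphocyte-like cells in the order control, AKI 1, AKI 2, CKD 1, CKD 2, and Acp5 in them was 0.570, 0.787, 0.931, 1.05 and 0.946 per 10000. Over all T lymphocyte-like cells it was 0.575, 0.752, 0.878, 1.04 and 0.906, so the selection moved it little in any library. In EC-like cells of CKD 1 the same selection left 0.763 of 4.21 per 10000.

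Every cluster of T lymphocyte-like cells with at least 20 cells in a library held Acp5. Over 8 such clusters in the control the level was 0.322 to 0.846 per 10000, and over 12 clusters it was 0.445 to 1.07 (AKI 1), 0.398 to 1.27 (AKI 2), 0.726 to 1.64 (CKD 1) and 0.663 to 1.35 (CKD 2). The cluster led by Cd8a, Cd8b1 and Cd160, of CD8 cells, had 0.607 in the control, 1.07 and 1.27 in AKI, and 1.31 and 1.35 in CKD. The cluster led by Foxp3 and Ikzf2, the genes of regulatory T cells, had 0.322, 0.556, 0.684, 0.961 and 0.696 in the same order. The former was above the latter in 5 of 5 libraries, but the pair stood at ends of the ranges above. The former had the highest level in AKI 1, AKI 2 and CKD 2, and the latter the lowest in the control. Over all libraries another CD8 cluster, led by Cd8b1 and Ccl5, had 0.931. That was below the 1.08 of a cluster led by Cd40lg and Cd4. Clusters come from the cells themselves and were not tested against each other.

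NK-like cells, which share cytotoxic genes with CD8 cells, numbered 149, 125, 122, 194 and 277 in the order control, AKI 1, AKI 2, CKD 1, CKD 2. Their Acp5 level was 0.304 per 10000 in the control, 0.516 and 0.783 in AKI, and 0.988 and 0.749 in CKD, from 15 to 100 UMIs. The AKI and CKD libraries overlapped, and their difference of 0.34 did not pass (edgeR adjusted p = 0.997, 0.0976% of genes passed). Against T lymphocyte-like cells of the same libraries the log2 difference was -0.23 (95% interval -0.52 to 0.07, edgeR adjusted p = 0.268, 5 libraries), in a fit where 25.3% of genes passed. With C1q genes as reference the level was above free RNA in 4 of 5 libraries, and with Ctsk, Mmp9 and Atp6v0d2 in 2. The latter reference has the limit given for T lymphocyte-like cells. By the estimate from proximal tubule genes and all kept cells, observed over expected was 7.27 in the control, 4.75 and 4.07 in AKI. It was 0.388 and 0.617 in CKD 1 and CKD 2, below 1 in both.

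B lymphocyte-like cells, marked by immunoglobulin and CD79 genes, had 0.584 per 10000 in the control, 0.331 and 1.06 in AKI, and 1.26 and 1.05 in CKD, from 9 to 45 UMIs in 41 to 259 cells. The CKD against AKI difference of 0.77 did not pass (edgeR adjusted p = 1.00, 0.034% of genes passed), and it was -0.09 without AKI 1. Their difference from T lymphocyte-like cells was 0.13 (95% interval -0.23 to 0.49, edgeR adjusted p = 0.627), where 35.4% of genes passed. By the estimate from proximal tubule genes and all kept cells, observed over expected was 11.4 in the control, 2.19 and 4.20 in AKI. It was 0.352 and 0.501 in CKD 1 and CKD 2, below 1 in both. Neither NK-like nor B lymphocyte-like cells could be told apart from T lymphocyte-like cells by these tests, which is no evidence that they are alike, and NK-like and B lymphocyte-like cells were not compared.

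Dendritic cell-like (DC) cells come from myeloid precursors and present antigen to T cells. They had 0.0691 per 10000 in the control, 0.161 and 0.195 in AKI 1 and AKI 2, and 0.790 and 0.313 in CKD 1 and CKD 2, from 9 to 321 UMIs in 132 to 743 cells. In every library this was below T lymphocyte-like cells. The log2 difference from T lymphocyte-like cells was -1.44 (SE 0.30, 95% interval -2.12 to -0.76, edgeR adjusted p = 0.00298, lower in 5 of 5 libraries), in a fit where 52.8% of genes passed. All 16 alternative settings kept this call.

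DC-like cells of CKD were higher than those of AKI by 1.54 on the log2 scale (SE 0.42), which did not pass with edgeR (adjusted p = 0.361) and passed with DESeq2 (adjusted p = 0.0282). In the edgeR fit 0.051% of genes passed. Without CKD 2 the difference was 2.05 and passed (edgeR adjusted p = 6.91e-10). Observed over expected with C1q genes was 13.9, 21.6 and 6.55 in the control, AKI 1 and AKI 2, and 0.505 and 0.502 in CKD 1 and CKD 2. Acp5 in CKD DC-like cells was below what the C1q UMIs in those cells would bring with them. With Ctsk, Mmp9 and Atp6v0d2 as reference the ratios in CKD were 1.15 and 1.93. DC-like cells express Cd68 and Csf1r themselves, and with that reference none of the 5 libraries was above expectation.

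Monocyte-like cells, named for the circulating precursors of macrophages, had 0 Acp5 UMIs of 141047 in the control, which allows up to 0.213 per 10000. They had 1.57 and 1.93 per 10000 in AKI 1 and AKI 2, and 1.14 and 0.844 in CKD 1 and CKD 2, in 24 to 276 cells. Here the CKD libraries lay below the AKI libraries. Acp5 was lower in CKD by a log2 difference of -0.86 (SE 0.17, edgeR adjusted p = 0.00669), in a fit where 11.9% of genes passed. The class is 1 cluster whose marker scores nearly tied with macrophage-like cells, so its name was not secure. Its C1qa was at 39.9 and 40.1 per 10000 in AKI 1 and AKI 2, against 52.3 and 52.1 in macrophage-like cells. The CKD against AKI difference of the class was 0.66 with doublets kept and -0.020 at a mitochondrial limit of 15%.

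Neutrophil-like cells, the granulocytes that carry Mmp9 of their own, were few. In 20, 46, 37, 45 and 26 cells, in the order control, AKI 1, AKI 2, CKD 1, CKD 2, there were 0, 1, 0, 8 and 0 Acp5 UMIs. The zeros allow up to 0.616, 0.322 and 0.450 per 10000 in the control, AKI 2 and CKD 2, and CKD 1 had 0.926. That CKD 1 level was 0.212 times the free RNA expected by the estimate from proximal tubule genes and all kept cells. Against T lymphocyte-like cells the log2 difference was -2.36 (edgeR adjusted p = 7.51e-07), in a fit where 46.1% of genes passed. The CKD against AKI difference was not tested, since too few libraries reached the count minimum. Plasmacytoid DC-like cells held from 0 to 4 Acp5 UMIs per library in 7 to 21 cells.

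Fibroblast or pericyte-like cells, the matrix-producing cells of the interstitium, had 0.165 per 10000 in the control, 0.144 and 0.328 in AKI, and 2.83 and 1.51 in CKD, in 24 to 152 cells. The CKD libraries lay above the AKI libraries. The difference of 3.36 on the log2 scale (SE 0.52) did not pass (edgeR adjusted p = 0.106). It passed when any 1 of the 4 libraries was left out, at 2.73 to 4.09. In CKD 2 a single cell held 28 of the 43 UMIs, and the other 23 cells had 0.569 per 10000. The highest cell of CKD 1 held 22 of 133, and the others had 2.38. The class expresses Ctsk itself, at 1.06 to 2.57 per 10000, so Ctsk is no measure of free RNA in it. With C1q genes the ratio was 0.270 in CKD 1, where C1q stood at 6.85 per 10000, and 9.87 in CKD 2. The CKD 2 ratio rested on 1 UMI of C1qa, 2 of C1qb and 0 of C1qc, and included the cell with 28 Acp5 UMIs. The estimate from all kept cells gave 0.412 in CKD 1 and 1.23 in CKD 2 with proximal tubule genes. With T cell genes it gave 0.536 and 0.605.

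EC-like cells, which line the vessels, had 0.0183 per 10000 in the control, 0.0297 and 0.0554 in AKI 1 and AKI 2, 4.21 in CKD 1 and 0.188 in CKD 2. Between AKI and CKD the difference of 5.83 did not pass (edgeR adjusted p = 0.524), and passed without CKD 1 (2.18) or CKD 2 (6.74). The CKD 1 value was far from that of CKD 2 and came mostly from 1 cluster, led by Ccl21a, Fabp4 and Meis2, with 1066 of the 1143 Acp5 UMIs. That cluster had 8.27 per 10000 in CKD 1, 0.408 in CKD 2 and 0.0219 to 0.0473 in the other libraries, and C1q stood at 3.50 per 10000 in it in CKD 1. With Ctsk, Mmp9 and Atp6v0d2 as reference, observed over expected of EC-like cells was 1.14 in CKD 1 and 0.797 in CKD 2. The part of free RNA and of doublets in the CKD 1 value was not tested.

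Proximal tubule-like (PT) cells, the target of AAI, had 0.158 per 10000 in the control, 0.349 and 0.384 in AKI, and 2.10 and 0.664 in CKD. The difference of 1.98 (SE 0.49) did not pass (edgeR adjusted p = 0.172, 0.00834% of genes passed), and passed without CKD 1 (0.85) or CKD 2 (2.54). For PT-like cells the estimate from all kept cells took the share of free RNA from T cell genes. Observed over expected was 51.5 in the control, 12.1 and 13.2 in AKI, and 0.754 and 0.980 in CKD. PT-like cells with no UMI of the macrophage genes listed above had 0.157 per 10000 in the control. In AKI such cells had 0.312 and 0.410, and in CKD 0.726 and 0.522. In the loop of Henle, distal tubule and collecting duct, levels in the control and AKI ran from 0 to 0.239 per 10000 and those of CKD 2 from 0.105 to 0.207, while CKD 1 stood between 0.452 and 2.66. The 0.239 was that of thick ascending limb-like (TAL) cells in AKI 2, where 1 cell held 50 of 59 UMIs and the others had 0.0373. Distal convoluted tubule-like cells of the control held 0 Acp5 UMIs of 2122293. CKD 1 was above CKD 2 in each of these classes, and it is the library with the lowest median depth of kept cells. The CKD against AKI difference in TAL-like cells was 3.21 and did not pass (edgeR adjusted p = 0.312, 0.0272% of genes passed).

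The other tubule classes were each lower than T lymphocyte-like cells of the same libraries. The log2 difference was -2.56 in TAL-like cells (edgeR adjusted p = 0.0182, 74.5% of genes passed) and -3.47 in thin limb-like cells (edgeR adjusted p = 0.0148, 73.3% of genes passed). It was -3.03 in distal convoluted tubule-like cells (edgeR adjusted p = 0.0347, 66.6% of genes passed) and -3.87 in connecting tubule-like cells (edgeR adjusted p = 0.000949, 67.1% of genes passed). In the collecting duct it was -3.73 in principal-like cells (edgeR adjusted p = 0.0218, 71.7% of genes passed) and -4.04 in intercalated-like cells (edgeR adjusted p = 0.0154, 75.8% of genes passed). Injured tubule-like cells stood at -3.62 (edgeR adjusted p = 6.90e-07, 68.8% of genes passed) and urothelium-like cells at -2.62 (edgeR adjusted p = 0.00951, 53.5% of genes passed). Plasmacytoid DC-like cells, with 2 libraries of at least 20 cells, stood at -2.85 (edgeR adjusted p = 7.01e-05, 16% of genes passed). In CKD 1, T lymphocyte-like cells were at 1.04 per 10000. There TAL-, thin limb-, distal convoluted tubule-, principal- and intercalated-like cells were higher, at 2.12, 2.41, 1.62, 2.66 and 2.20. Urothelium-like cells were at 1.05. Connecting tubule- and injured tubule-like cells were lower in CKD 1, at 0.452 and 0.161.

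Set against T lymphocyte-like cells of the same 5 libraries, macrophage-like cells were higher by 2.90 on the log2 scale (SE 1.00, edgeR adjusted p = 0.0417), in a fit where 54% of genes passed. Without the cells with shared barcodes the difference was 2.63 and did not pass, and the call was also lost without AKI 2 (3.26), CKD 1 (2.13) or CKD 2 (2.10). Monocyte-like cells did not differ past the threshold (0.58, edgeR adjusted p = 0.123, 60.3% of genes passed), but did without the control (0.77). EC-like cells were lower by a log2 difference of -3.10 (edgeR adjusted p = 0.0275, 68.6% of genes passed) and PT-like cells by -1.05 (edgeR adjusted p = 0.0463, 75.4% of genes passed). In CKD 1, though, EC-like and PT-like cells were at 4.21 and 2.10 per 10000, above the 1.04 of T lymphocyte-like cells. Both calls stood without CKD 1 and were lost without any other library, at -3.22 to -2.42 for EC-like and -1.11 to -0.78 for PT-like cells. The fibroblast or pericyte-like difference of -0.84 did not pass (edgeR adjusted p = 0.203, 56% of genes passed), and passed without CKD 1 (-1.40). In order of these differences, taken over the libraries together, macrophage-like cells stood first. In the control without shared barcodes, though, they were at 0.0970 per 10000, below the 0.575 of all T lymphocyte-like cells there. In AKI 1 and AKI 2 they were at 1.26 and 3.24 against 0.752 and 0.878, and the AKI 2 value was 1.32 without its 3 highest cells. In CKD 1 and CKD 2 they were at 47.5 and 49.5 against 1.04 and 0.906. Monocyte-, B lymphocyte-, NK- and fibroblast or pericyte-like cells could not be told apart from T lymphocyte-like cells. PT-, DC-, neutrophil- and EC-like cells were below T lymphocyte-like cells. Other neighbours in this order were not tested against each other, and all of these comparisons share the T lymphocyte-like cells.

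The change from AKI to CKD was then compared between classes. It was larger in macrophage-like than in T lymphocyte-like cells by 4.13 on the log2 scale (95% interval 3.35 to 4.92, edgeR adjusted p = 0.00238), in a fit where 14.8% of genes passed. It was larger than in NK-like cells by 3.86 (edgeR adjusted p = 8.60e-08, 8.2% of genes passed) and than in B lymphocyte-like cells by 3.45 (edgeR adjusted p = 3.77e-14, 4.21% of genes passed). Against DC-like cells the difference was 2.70 (edgeR adjusted p = 0.00342, 22.7% of genes passed), a call lost without AKI 1 (2.35), and against monocyte-like cells 5.18 (edgeR adjusted p = 1.50e-05, 19% of genes passed). Against PT-like cells it was 2.75 and did not pass (edgeR adjusted p = 0.112, 2.53% of genes passed), and it passed without CKD 1 (3.66) or CKD 2 (1.69). Against EC-like cells it was -0.39 (95% interval -4.29 to 3.51, edgeR adjusted p = 0.925, 5.03% of genes passed), with 2.18 without CKD 1 and -2.50 without CKD 2. Against fibroblast or pericyte-like cells it was 0.96 (edgeR adjusted p = 0.358, 3.16% of genes passed) and against neutrophil-like cells 1.04 (95% interval -2.33 to 4.40, edgeR adjusted p = 1.00, 1.66% of genes passed), the latter -6.94 without AKI 1. Against tubule classes it was 1.73 for TAL-like (edgeR adjusted p = 0.441, 4.85% of genes passed), -0.03 for thin limb-like (edgeR adjusted p = 1.00, 2.93% of genes passed) and -0.69 for collecting duct principal-like cells (edgeR adjusted p = 0.867, 0.198% of genes passed), none past the threshold. Without correction by library, where the Ctsk-led cells leave the class, the T lymphocyte-like comparison was -0.82, and those with NK-, B lymphocyte- and DC-like cells were -0.97, -1.31 and -1.53. All these comparisons share the macrophage-like cells.

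**Figure D4:**
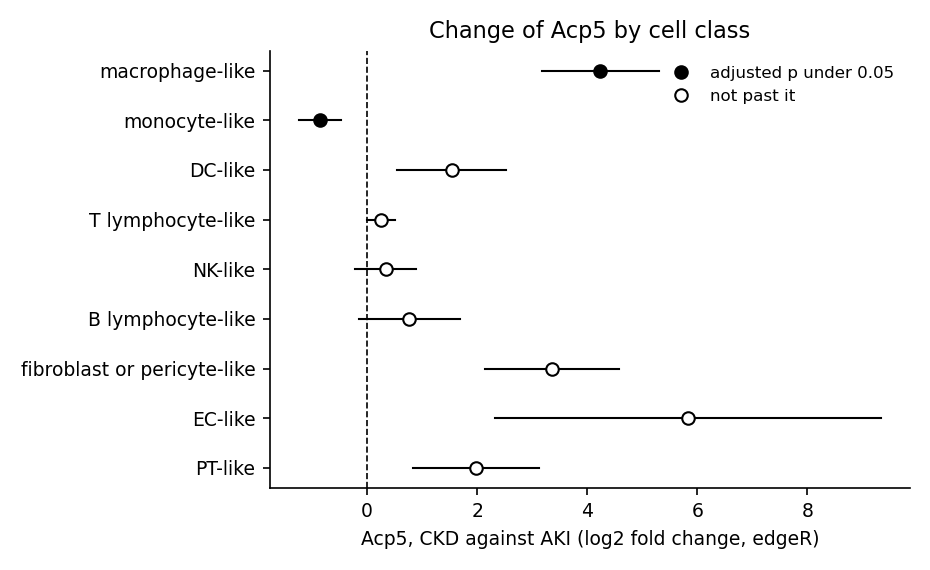
Log2 difference of Acp5 between CKD and AKI within each class, with 95% intervals from edgeR and filled points where the adjusted p passed the threshold. Macrophage-like cells stand at 4.24, T lymphocyte-like cells at 0.25 and monocyte-like cells at -0.86.

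The place where Acp5 UMIs lay shifted with the group. In the control, T, NK and B lymphocyte-like cells together held 48.7% of the Acp5 UMIs of kept cells and macrophage-like cells 24.7%. In AKI 1 the shares were 57.2% and 19.8%, and in AKI 2 they were 35.6% and 42.6%. The order in AKI 2 turned on the 3 highest macrophage-like cells, without which the shares were 47.8% and 23.01%. In CKD 1 they were 3.77% and 84.6%, and in CKD 2 they were 6.2% and 92.4%. Without the shared barcodes the shares of the control were 61.8% and 4.51%. With monocyte-like cells counted as macrophage-like, the macrophage-like share was 31.7% in AKI 1 and 56.2% in AKI 2. The mean macrophage-like share of the CKD libraries, 88.5%, was 75.0% with equal weight for every class and 0.414% without correction by library, where the Ctsk-led cells had no macrophage name.

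**Figure D5:**
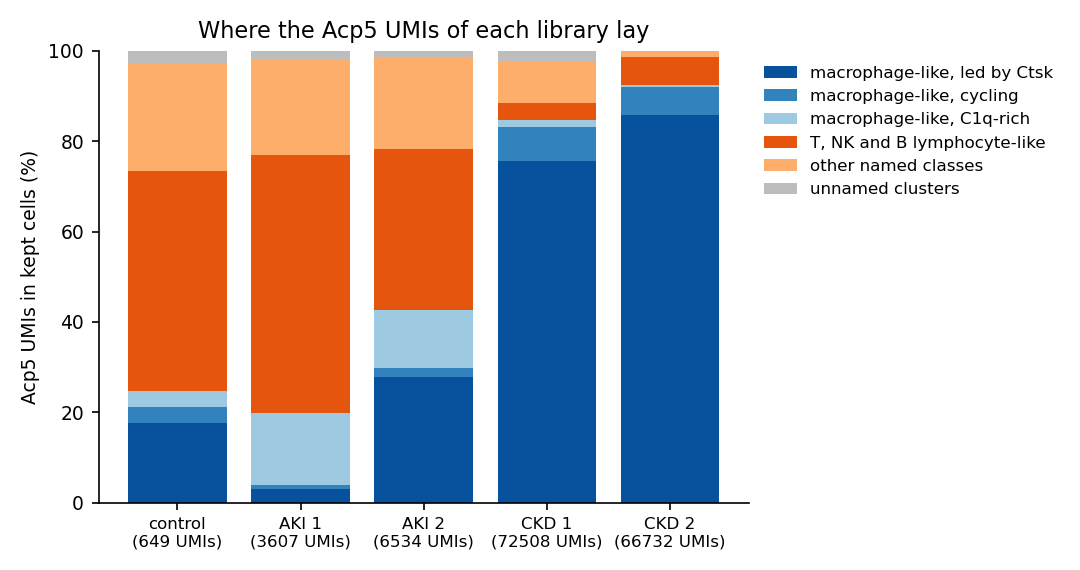
Share of the Acp5 UMIs of kept cells (%) held by lymphocyte-like, macrophage-like, unnamed and all other cells, 1 bar per library. Lymphocyte-like cells hold 48.7% in the control and 6.2% in CKD 2, and macrophage-like cells 24.7% and 92.4%.

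Cells with 10 or more Acp5 UMIs numbered 2 in the control, 20 and 49 in AKI, and 848 and 264 in CKD. Without the shared barcodes the control had 0. Macrophage-like cells were 682 of the 848 in CKD 1 and 255 of the 264 in CKD 2. Monocyte-like cells were 12 of the 20 in AKI 1 and 27 of the 49 in AKI 2. EC-like and PT-like cells were 36 each in CKD 1. T lymphocyte-like cells were 3 in CKD 1 and 1 in CKD 2.

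The genes most like Acp5 were sought over 89 pairs of class and library, among 14781 genes, by the correlation of log levels, which share libraries and depth and are given without a test. Ctsk came first with r = 0.78, followed by Slc9b2 at 0.73, Mt3, a metallothionein, at 0.73, Fcna, a ficolin, at 0.70, and Cdk1, the mitotic kinase, at 0.68. Over 84 pairs without macrophage-like cells Ctsk was at 0.65. In T lymphocyte-like cells Ctsk stood at 0.00443 per 10000 in the control, 0.000741 and 0.00657 in AKI, and 0.298 and 0.142 in CKD, which is low in the first 3 libraries, where Acp5 was at 0.575 to 0.878.

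The neighbours of Acp5 on the chromosome were read as a check on misplaced reads. The lncRNA 6530413G14Rik overlaps Acp5 on the plus strand, at chr9:22028624-22049053, and held at most 10 UMIs in any of the classes and libraries read. Elof1, a transcription elongation factor 9437 bases away, was at 0.30 to 0.933 per 10000 in macrophage-like cells and at 0.381 to 0.726 in T lymphocyte-like cells.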

How the data were processed

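The deposited files hold whole-number UMI counts per gene and barcode, which the authors made from 10x 3′ libraries with Cell Ranger 7.2.0 and STAR on GRCm39, per the labels. For AKI and CKD, however, the file headers carry a different Cell Ranger version. The study's later removal of free RNA and doublets is not part of these counts.

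Barcodes with at least 200 genes and at most 30% mitochondrial UMIs were kept, and the barcodes with the highest simulated-doublet scores were removed, 0.8% of barcodes per 1000 barcodes. Cells were clustered by Leiden (leidenalg 0.10.2, resolution 1.5) on 40 principal components of 3000 variable genes, without Acp5 and with correction by library. Clusters were named from marker lists. Members and lists were chosen with earlier results of these data known. Genes named besides Acp5 were taken from up to 5 members of each list with the largest log2 difference past the threshold, or the highest level where fewer passed, from the 10 genes with the highest Pearson correlation of log2(UMIs per 10000 + 0.1) with Acp5 among genes with at least 200 UMIs, from the reference genes of the free RNA estimate and from the neighbours of Acp5. Genes that mark or lead a cluster are named with it.

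Counts were summed per class and library with at least 20 cells and tested with the edgeR 4.0.16 quasi-likelihood test with Benjamini-Hochberg adjustment over all genes, threshold 0.05. CKD was compared with AKI, each class with T lymphocyte-like cells with the library as a block, and the change of macrophage-like cells with that of other classes. Expected free RNA was a class's UMIs of macrophage reference genes times the ratio of Acp5 to those genes in macrophage-like cells of the library. DESeq2 1.42.0, no count filter, doublets kept, a mitochondrial limit of 15%, no correction by library, other reference genes, leaving out a library and marker gates per cell (at least 3 UMIs of a class's genes and at most 1 of any other's) were among the alternatives. Intervals are exact at 95% (Poisson or Clopper-Pearson), and a count of 0 allows 3 counts. On simulated counts for CKD against AKI, macrophage-like, over 11896 genes, 37.9% of genes changed by 1 and 67.4% of those changed by 2 on the log2 scale were recovered, and 12.2% of the genes called were unchanged ones. That last share was 16.4% for T lymphocyte-like cells and 17.6% for the interaction of macrophage-like with T lymphocyte-like cells. For EC-like against T lymphocyte-like cells it was 5.56%. These shares lay above the threshold of 0.05.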

Additional observations from a re-analysis of the deposited data

Results flagged for a closer look

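The change of Acp5 from AKI to CKD differed between macrophage-like cells and 5 other classes by the interaction test. The excess in macrophage-like cells on the log2 scale was 3.45 over B lymphocyte-like, 2.70 over DC-like, 5.18 over monocyte-like, 3.86 over NK-like and 4.13 over T lymphocyte-like cells.

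Barcodes outside the named classes of the main setting also held Acp5 above the control in CKD. Removed doublets entered only the alternative with doublets kept. Cells of unnamed clusters had 3.85 UMIs per 10000 in CKD 1 and 1.08 in CKD 2, against 0.0447 in the control. Barcodes removed as doublets had 6.15 and 5.34, against 0.0923. Barcodes over the mitochondrial limit had 1.10 and 0.770, against 0.0601. The removed doublets held 19.4% of all Acp5 UMIs in CKD 1 and 7.09% in CKD 2.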

How the results depend on the processing

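For CKD against AKI, 14 of 16 alternatives gave the macrophage-like call again, 14 of 16 the T lymphocyte-like one and 15 of 15 the NK-like one, but 7 of 14 kept the fibroblast or pericyte-like call and 9 of 16 that of macrophage-like against T lymphocyte-like cells. The DC-like difference from T lymphocyte-like cells held in 16 of 16. Where a call moved, the cause was not tested, except that the Ctsk-led cells lose the macrophage-like name without correction by library and under marker gates. The number of cells limits the neutrophil-, plasmacytoid DC- and fibroblast or pericyte-like values. The alternatives that leave out the Ctsk-led clusters or join monocyte-like with macrophage-like cells were chosen after seeing the data. With 1 library left out of a group, the lone library is assumed to vary like the others.

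CKD against AKI, in log2: without correction by library macrophage-like was -0.48 and monocyte-like -0.71. Marker gates gave macrophage-like 1.51, DC-like 3.32, T lymphocyte-like 1.12, B lymphocyte-like 3.68 and EC-like 8.72. With doublets kept monocyte-like was 0.66, and at a mitochondrial limit of 15% -0.020. DESeq2 gave DC-like 1.56 and fibroblast or pericyte-like 3.38. No count filter gave DC-like 1.54, fibroblast or pericyte-like 3.33 and PT-like 1.93. The replicate block, on numbers that only name the libraries (correlation of deviations 0.165 in macrophage-like and 0.264 in T lymphocyte-like cells), put fibroblast or pericyte-like (3.29), EC-like (5.10) and PT-like (1.75) past the threshold and changed no other of these calls. Leaving out 1 library gave DC-like 0.73 to 2.05, T lymphocyte-like 0.15 to 0.37, B lymphocyte-like -0.093 to 1.69, fibroblast or pericyte-like 2.73 to 4.09, EC-like 2.18 to 6.74, PT-like 0.85 to 2.54, macrophage-like 3.68 to 4.94 and monocyte-like -1.07 to -0.67.

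Each class against T lymphocyte-like cells, in log2: macrophage-like was 1.68 at the 15% limit, 0.94 with gates, 2.63 without shared barcodes and 1.5 without the Ctsk-led clusters. Monocyte-like was -0.20 with doublets kept, -0.058 without correction and -0.84 without cells with C1q UMIs. Neutrophil-like was -0.16 with doublets kept and -0.42 with gates. NK-like was -1.47 with gates, B lymphocyte-like -0.021 with no filter and 1.06 with gates, fibroblast or pericyte-like -1.30 without correction and -1.94 with gates, EC-like -1.69 with gates and PT-like -1.08 without correction. Leaving out 1 library gave macrophage-like 2.10 to 3.56, monocyte-like 0.32 to 0.77, fibroblast or pericyte-like -1.40 to -0.43, EC-like -4.17 to -2.42 and PT-like -1.50 to -0.78.

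Interaction, in log2: without correction monocyte-like was 0.15, DC-like -1.53, neutrophil-like -3.71, T lymphocyte-like -0.82, NK-like -0.97, B lymphocyte-like -1.31, fibroblast or pericyte-like -2.78 and PT-like -2.52. With gates DC-like was -1.93, neutrophil-like -12.96, T lymphocyte-like 0.36, B lymphocyte-like -2.25 and EC-like -7.31. At the 15% limit neutrophil-like was -0.85 and fibroblast or pericyte-like -0.76, and without the Ctsk-led clusters -0.38 and -0.53. With doublets kept EC-like was 1.77, and DESeq2 put PT-like at 2.66. Leaving out 1 library gave DC-like 2.07 to 3.47, neutrophil-like -6.94 to 11.43, EC-like -2.50 to 2.18 and PT-like 1.69 to 3.66.

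The number of libraries of 5 above expected free RNA was, with Ctsk, Mmp9 and Atp6v0d2 as reference, NK-like 2, fibroblast or pericyte-like 0 and EC-like 1. With Ms4a7, Cd68 and Csf1r it was DC-like 0 and EC-like 1. It was DC-like 5 without correction, with gates and without the Ctsk-led clusters, and EC-like 0 and 2 with all kept cells as source and the foreign share from PT and T genes, against 3 for DC-like and 4 for the others in the report. Share of Acp5 in macrophage-like cells, control and CKD: 15.4% and 75.8% over all barcodes, 6.82% and 11.7% at the 15% limit, 0.308% and 0.414% without correction, 1.08% and 3.01% with gates, 7.09% and 7.81% without the Ctsk-led clusters. The control share was 4.51% without shared barcodes and the CKD share 75.0% with equal weight of classes. Thinning to 1000 UMIs moved shares of cells with an Acp5 UMI in control, AKI and CKD to 0.817%, 11% and 50.01% in macrophage-like, 5.67%, 8.24% and 10.6% in T lymphocyte-like, 3.40%, 6.50% and 8.58% in NK-like, and to 0.182% and 0.330% in control and AKI EC-like cells.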
